A study of Mus musculus with 8 samples.

Results

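The genes described are 10 transcripts that ERK signalling is known to induce, read in RNA from the distal colon of mice. They are the phosphatases Dusp4, Dusp5 and Dusp6, the inhibitors Spry1, Spry2, Spry4 and Spred1, the ETS transcription factors Etv4 and Etv5, and Phlda1. They were chosen by their known role and because Dusp4 and Etv5 stood higher in one group of libraries, so the difference between the groups in these genes is given as a description and tests nothing. All 10 are among the 16130 genes of the deposited table and among the 14311 that passed a filter on low counts. The lowest count of any of them in any library was 34, so none passed the filter through 1 group alone.

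All animals carried ApcMin/+, a truncating allele of the tumour suppressor Apc, together with an allele written Tcf4Het/+. The non-enriched group (NE, n = 4) was kept in conventional housing for 4 months and the enriched group (EE, n = 4) in enriched housing for the same time, with no other treatment named. The labels give no age beyond this, no wild-type group, and no statement on whether adenoma tissue was part of the sample or whether each library came from 1 animal, so the spread between libraries may be partly technical. The sign of the authors' own fold changes is opposite to EE minus NE for all 10 genes, as it is for 97.8% of genes tested, which a ratio of NE over EE or exchanged column names would both give. EE and NE below mean the libraries labelled so.

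The libraries held 4735764 to 10586851 counts. All 14 markers listed for colon epithelium had counts in every library, with a summed level of 16113 to 23493 counts-per-million (CPM) in NE and 11119 to 19679 CPM in EE. EE 4 stood apart in the stroma: the 10 smooth muscle markers summed to 664 CPM there, against 2296 to 4377 CPM in EE 1 to EE 3 and 3498 to 5646 CPM in NE. Values are therefore given with and without EE 4. EE 3 also differed: it was the lowest of the 8 libraries for the epithelial markers, at 11119 CPM, and for goblet cell markers, at 10031 CPM. The values without EE 4 still include EE 3. In whole tissue, fewer cells of a type and less RNA per cell cannot be told apart.

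ERK is the last kinase of a relay that runs from growth factor receptors through Ras, Raf and MEK. It switches on transcription factors and, with them, its own brakes. Dual-specificity phosphatases remove the phosphates that activate MAP kinases, with Dusp4 and Dusp5 acting in the nucleus and Dusp6 in the cytoplasm. Sprouty and Spred proteins act nearer the membrane, between the receptors and Raf. Etv4 and Etv5 belong to the PEA3 branch of ETS factors. In the intestine, epidermal growth factor signals of the crypt base feed this relay, and the level of these transcripts is commonly taken as a readout of it.

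Promoter sequence was available in RefSeq (GRCm38.p6, the build of mm10) for 6 of the 10 genes, in 7 windows of 250 bases before a start site. The 4 windows below are shown because they belong to Etv5, which stood higher in EE and has 2 listed start sites, and to the phosphatases Dusp5 and Dusp6, whose values overlapped between the groups. Capitals mark matches to any of 6 motifs searched on both strands: CCGGAA (ETS core), AGGAAG (PEA3-type ETS), TGANTCA (AP-1), TGACGTCA (the cyclic AMP element), the CArG box of serum response factor (CC, then 6 of A or T, then GG) and CTTTGAT (TCF/LEF). Bases that a GENCODE M21 exon of the gene covers are not printed, which removed the last 149 bases of the first Etv5 window and the last 36 of the Dusp5 window. Etv5 lies on the minus strand and both phosphatase genes on the plus strand.
Etv5, first start, chr16:22439720-22439820: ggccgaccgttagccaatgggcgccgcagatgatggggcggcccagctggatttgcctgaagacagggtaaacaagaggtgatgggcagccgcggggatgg
Etv5, second start, chr16:22438369-22438618: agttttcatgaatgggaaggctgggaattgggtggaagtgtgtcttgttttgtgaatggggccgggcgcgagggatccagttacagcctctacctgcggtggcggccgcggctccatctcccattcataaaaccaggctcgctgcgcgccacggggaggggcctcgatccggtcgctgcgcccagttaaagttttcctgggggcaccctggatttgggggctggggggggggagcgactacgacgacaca
Dusp5, chr19:53528895-53529108: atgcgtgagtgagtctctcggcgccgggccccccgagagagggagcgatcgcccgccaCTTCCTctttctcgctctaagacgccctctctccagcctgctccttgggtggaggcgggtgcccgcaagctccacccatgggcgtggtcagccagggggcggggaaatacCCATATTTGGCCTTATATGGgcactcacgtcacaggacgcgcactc
Dusp6, chr10:99262981-99263230: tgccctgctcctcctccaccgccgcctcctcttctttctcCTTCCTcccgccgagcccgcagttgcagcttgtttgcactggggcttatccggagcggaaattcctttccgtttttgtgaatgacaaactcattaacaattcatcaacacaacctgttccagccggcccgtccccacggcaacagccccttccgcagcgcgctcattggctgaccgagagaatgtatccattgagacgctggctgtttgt

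The Dusp5 window held 2 CArG boxes side by side, which end 73 and 63 bases before the start, and 1 match to AGGAAG. A CArG box occurred in 1.47% of the 32851 windows of this length in the RefSeq table. Dusp6 held 1 match to AGGAAG, a motif found in 29.5% of windows. Neither Etv5 window held any of the 6, nor did the windows of Spry1, Spry2 and Spred1. The ETS core was present in 12.0% of all windows, the AP-1 motif in 6.75%, the cyclic AMP element in 1.55% and the TCF/LEF motif in 3.21%, and none of these matched in the 7. A match is only a string of letters, and no match says only that these letters are not in this window. Dusp4, Spry4, Etv4 and Phlda1 had no entry.

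Per length of exon, the 10 genes covered a wide range of levels. In NE, Dusp6 was highest at 26.0 ± 2.16 CPM per kilobase (SD, n = 4), followed by Phlda1 at 19.7 ± 3.92, and Spry4 was lowest at 1.95 ± 0.317. Between them stood Spred1 at 13.6 ± 0.940, Dusp4 at 12.7 ± 1.28, Spry2 at 11.9 ± 1.83, Etv5 at 8.23 ± 0.846, Etv4 at 5.10 ± 1.96, Spry1 at 5.07 ± 1.14 and Dusp5 at 3.74 ± 0.670 CPM per kilobase. The ranges of neighbours in this order overlapped except between Phlda1 and Spred1, between Spry2 and Etv5 and between Dusp5 and Spry4. In EE the order of the means differed at the top, with Phlda1 highest at 38.2 ± 12.9, followed by Dusp6 at 28.5 ± 2.41, Dusp4 at 22.8 ± 5.59 and Etv5 at 15.4 ± 5.30 CPM per kilobase.

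**Figure D1:**
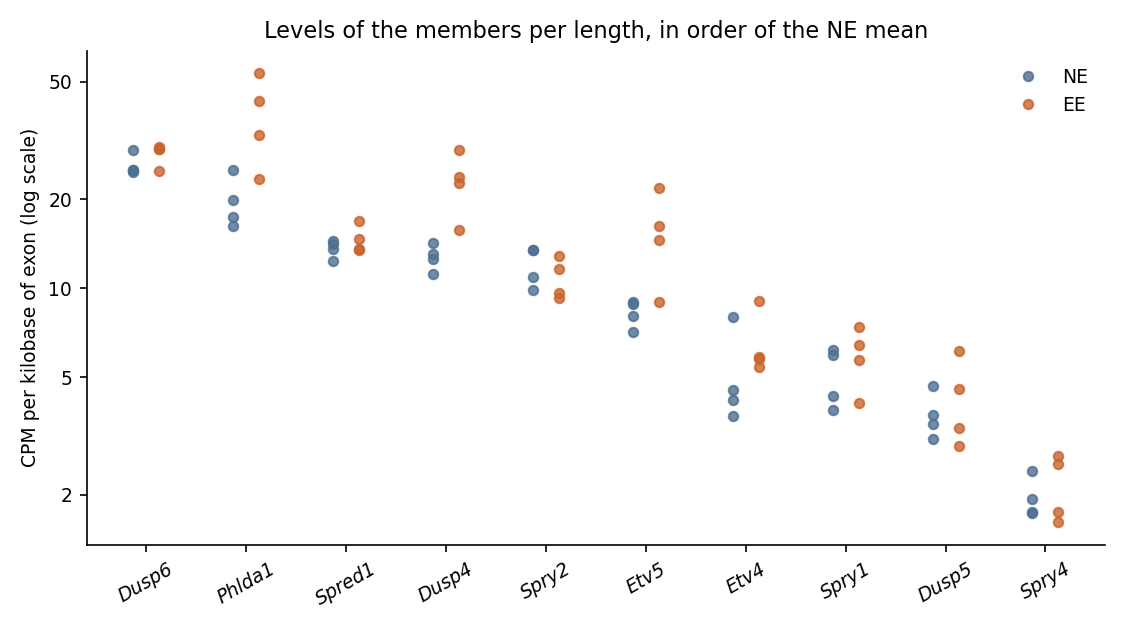
Level of each gene in each library as CPM per kilobase of exon, on a log axis, in order of the NE mean, with NE in blue and EE in orange. Dusp6 and Phlda1 stand at the top and Spry4, near 2 CPM per kilobase, at the bottom, and the orange points of Phlda1, Dusp4 and Etv5 reach above the blue ones.

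The 3 phosphatases did not share a single pattern. Dusp4 (chromosome 8, 34807297 to 34819894) stood at 34.4, 35.8, 38.9 and 30.5 CPM in NE 1 to NE 4 and at 62.0, 43.1, 65.0 and 80.4 CPM in EE 1 to EE 4. All 4 EE libraries lay above all 4 NE libraries, EE 2 by the smallest step and EE 4 by the largest. The fold change was 0.84 on the log2 scale (SE 0.18), and 0.70 (SE 0.16) without EE 4.

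Dusp6, the cytoplasmic phosphatase of ERK itself, was the most even of the 3. It stood at 91.6, 78.7, 77.1 and 78.6 CPM in NE, against 78.1, 94.0, 92.6 and 92.9 CPM in EE. Each group held 3 close libraries and 1 apart, NE 1 above and EE 1 below, and the other 3 EE libraries lay just above NE 1. The log2 fold change was 0.13 (SE 0.11), and 0.12 without EE 4.

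Dusp5, which holds ERK in the nucleus, was the scarcest phosphatase, with 34 to 98 counts a library. Its values were 11.5, 8.60, 9.20 and 7.62 CPM in NE, against 7.22, 15.1, 8.31 and 11.3 CPM in EE. The EE libraries spread on both sides of NE, with EE 1 lowest of all 8 and EE 2 highest. The log2 fold change was 0.18 (SE 0.25) and turned to −0.04 without EE 2, the library in which Dusp4 was lowest among EE.

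**Figure D2:**
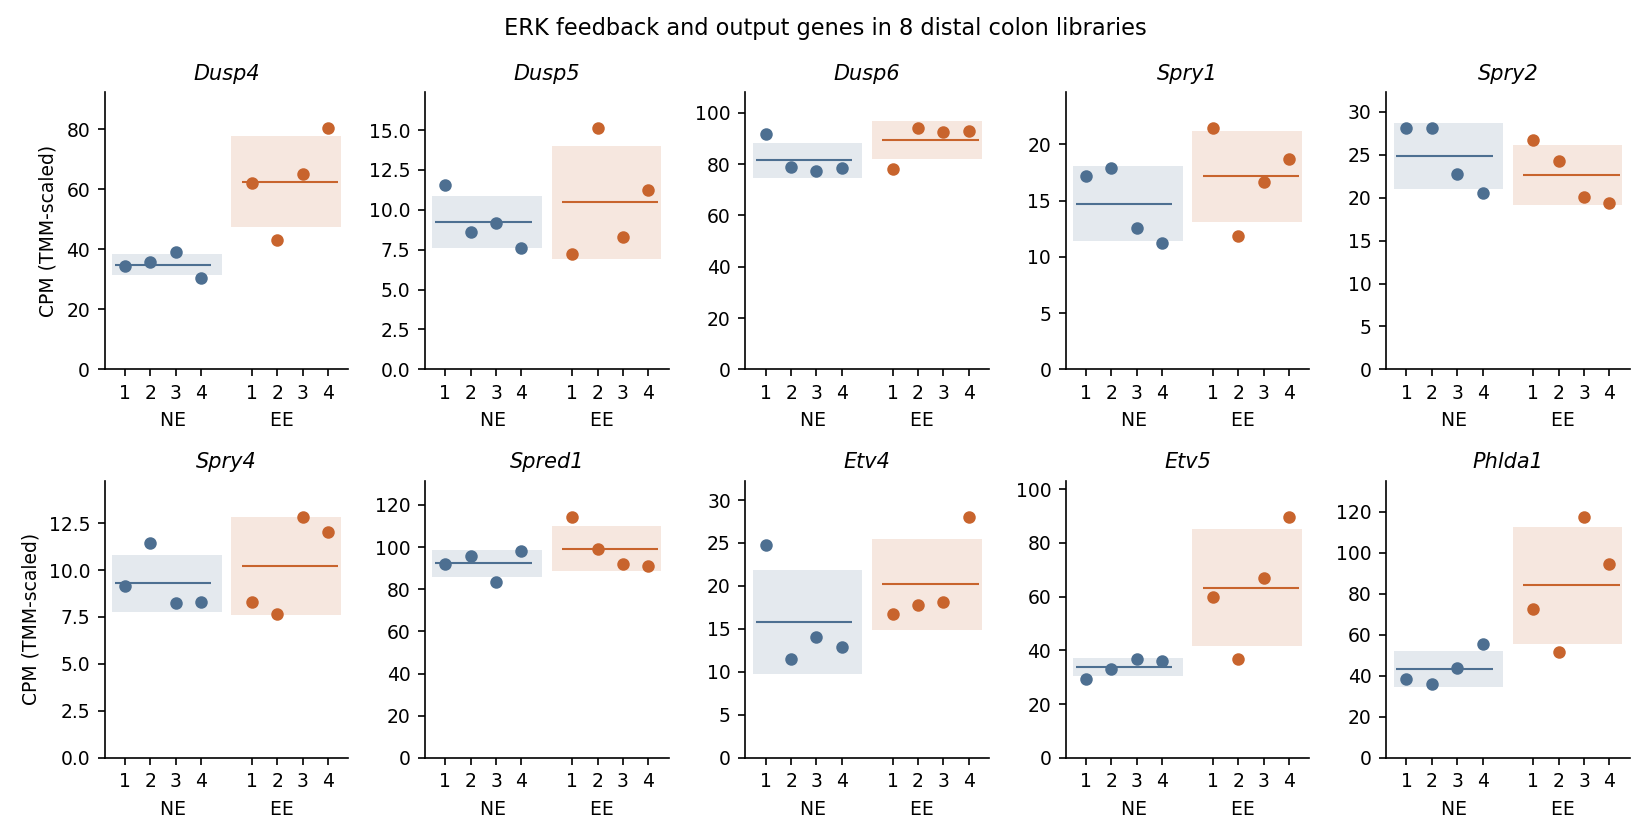
CPM of each gene (vertical axis, from 0) in the 4 NE (blue) and 4 EE (orange) libraries, with the group mean as a line and 1 SD on either side as a band. EE lies above NE in every library for Dusp4 and Etv5, in 3 of 4 for Phlda1 and Dusp6, and the groups overlap in every panel except those of Dusp4 and Etv5.

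The inhibitors at the membrane were near even between the groups. Spred1, which binds neurofibromin and so restrains Ras, was the most abundant in CPM, at 91.9, 95.6, 83.5 and 98.1 CPM in NE, against 114, 99.3, 92.0 and 91.2 CPM in EE. Only EE 1 and EE 2 lay above the highest NE library, and the log2 fold change was 0.10 (SE 0.12). Spry2, the main Sprouty of many epithelia, was the 1 gene of the 10 with a negative log2 fold change, −0.14 (SE 0.17). It stood at 28.1, 28.1, 22.8 and 20.6 CPM in NE, against 26.8, 24.3, 20.1 and 19.3 CPM in EE, with its lowest values in EE 3 and EE 4.

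Spry1 stood at 17.2, 17.9, 12.6 and 11.3 CPM in NE, against 21.4, 11.9, 16.6 and 18.7 CPM in EE, which gave a log2 fold change of 0.22 (SE 0.22). EE 1 and EE 4 lay above every NE library and EE 2 and EE 3 among them. Spry4, with 39 to 88 counts a library, was at 9.16, 11.5, 8.26 and 8.29 CPM in NE, against 8.28, 7.66, 12.8 and 12.0 CPM in EE. EE 3 and EE 4 were its highest libraries and EE 2 its lowest, and the log2 fold change of 0.14 (SE 0.23) was 0.07 without EE 4 and 0.03 without EE 3.

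The 2 PEA3 factors had different patterns. Etv5 (chromosome 16, 22381309 to 22439719) stood at 29.2, 33.0, 36.8 and 36.1 CPM in NE, against 59.7, 36.9, 66.8 and 89.7 CPM in EE. EE 2 stood just above the highest NE library and the other 3 EE libraries were well above it, with EE 4 highest. The log2 fold change was 0.91 (SE 0.23), 0.70 (SE 0.20) without EE 4 and 1.09 without EE 2. Etv4 was at 24.8, 11.5, 14.1 and 12.9 CPM in NE, against 16.8, 17.8, 18.1 and 28.1 CPM in EE. NE 1 lay among the EE libraries, and 1 library in each group set most of its spread. Its log2 fold change was 0.36 (SE 0.27), 0.16 (SE 0.26) without EE 4 and 0.65 without NE 1.

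Phlda1, a pleckstrin homology domain protein whose transcript follows growth factor signals (chromosome 10, 111506286 to 111508645), had the largest fold change of the 10 over all 8 libraries. It stood at 38.5, 35.8, 43.8 and 55.4 CPM in NE, against 72.6, 51.7, 118 and 94.7 CPM in EE. EE 1, EE 3 and EE 4 lay above every NE library and EE 2 below NE 4. The log2 fold change was 0.96 (SE 0.24) and 0.91 (SE 0.27) without EE 4. Without EE 3 it was 0.77, below Etv5 at 0.90 and Dusp4 at 0.84, and without NE 2 it was 0.88, below Etv5 at 0.90. Phlda1, like Dusp5, Spry1 and Spry4, overlaps a gene on the opposite strand, and the counts of such pairs are uncertain since the use of strand is not known. Its highest library was EE 3, whereas EE 4 was highest for Dusp4, Etv5 and Etv4.

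**Figure D3:**
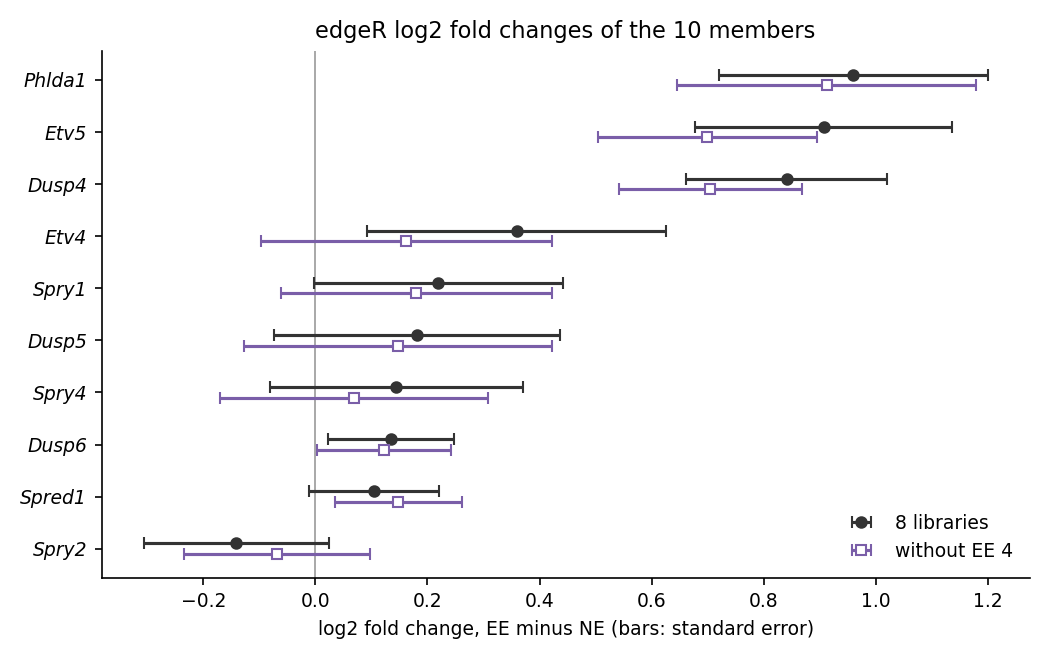
Log2 fold change of each gene, EE minus NE, with its standard error, from 8 libraries (filled circles) and without EE 4 (open squares). Over all 8 libraries, Phlda1, Etv5 and Dusp4 lie between 0.84 and 0.96, apart from the other genes, which lie between −0.14 and 0.36. Without EE 4 they are at 0.91, 0.70 and 0.70. The gap depends on single libraries: without NE 1 (not drawn), Etv4 is at 0.65 and Dusp4 at 0.83.

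Read against all genes, 9 of the 10 had a positive log2 fold change, where 50.3% of the 14311 tested genes did. The median of the 10 was 0.20 against 0.00 for all genes, and 0.16 without EE 4, 0.13 without NE 4, 0.30 without NE 1 and 0.31 without EE 2. Of the 10 genes, 2 (Dusp4 and Etv5) had all EE values above all NE values, as had 2.87% of all genes, and 3 (with Phlda1) had an unadjusted edgeR p under 0.05 with EE higher, as had 5.73%. None of the 10 passed edgeR's quasi-likelihood test with Benjamini-Hochberg adjustment at 0.05, and 0% of all genes did, with 1357 genes at an unadjusted p under 0.05. DESeq2 called 0 of the 10 and 0.0629% of genes as higher in EE, and limma-voom called 0 genes. By the authors' deposited table an FDR under 0.05 was given for 3 of the 10 genes, among 1.07% of genes called with the same sign. These were Phlda1 with a log2 fold change of −0.82 and an FDR of 3.46e-04, Etv5 with −0.74 and 0.00230 and Dusp4 with −0.71 and 0.00802, all as the authors' deposited table gives them, with the sign opposite to EE minus NE. Nothing is read from these counts, since the same contrast was used to choose the genes.

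Within a housing group, the 10 genes did not vary as one block. After the group means were removed, Pearson's r over the 8 libraries was positive in 23 of the 45 pairs and negative in 22, with a median of 0.05. These values are descriptions: the 8 libraries leave few independent values, each gene was scaled by the same library sizes, and EE 4 weighs on many pairs. Dusp4 and Etv5 had the highest r, 0.90, and 0.82 without EE 4. Etv5 and Phlda1 had 0.78, and 0.85 without EE 4. Dusp5 and Dusp6 formed another pair with r = 0.74, and 0.72 without EE 4, while Dusp5 ran against Etv5 (r = −0.50, and −0.91 without EE 4). Spry2 ran against Phlda1 (r = −0.77, and −0.76 without EE 4) and Etv5 (r = −0.60, and −0.45 without EE 4).

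For 4 of the genes the nearest patterns in the whole table were looked up. Among 12097 other genes of at least 5 CPM, the 3 nearest to Dusp4 by this r were Pip5k1c, which makes a membrane phosphoinositide, Letmd1, and Traf4, an adaptor of receptor signalling, with r of 0.999, 0.992 and 0.991. The nearest to Etv5 were Gyltl1b, a glycosyltransferase, the translation factor Eif3a and Reps1, with r of 0.997, 0.995 and 0.995. For Dusp6 they were Mrpl45, Srsf1 and Fkbp8 (r of 0.987, 0.971 and 0.965), and for Spry4 they were Vps52, Zscan2 and Pik3cb (r of 0.965, 0.956 and 0.936). Each is the highest of many values over 8 libraries, so a high r is given by the choice. Without EE 4 the 12 values lay between 0.937 and 0.999.

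The rest of the pathway was read from 7 lists with 111 genes, of which 106 were tested. None of the 106 passed the edgeR test. Of them 72 had positive and 34 negative log2 fold changes, where 50.3% of all tested genes were positive. An unadjusted p under 0.05 was found for 15 with EE higher, where 5.73% of all genes had one, and for 0 with EE lower. All EE values lay above all NE values in 7, as in 2.87% of all genes. The median log2 fold change was 0.14, and 0.07 without EE 4. The lists were drawn up with earlier results of these data known.

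Receptors and ligands of the EGF family, which start the relay, had a median log2 fold change of 0.17 over 11 tested genes, 8 of them positive. The ligand Hbegf stood at 22.1, 14.0, 18.1 and 12.9 CPM in NE, against 26.8, 28.1, 24.5 and 29.6 CPM in EE. All EE libraries lay above all NE libraries, EE 2 included, and the log2 fold change was 0.70 (SE 0.18). The ligand Areg was at 36.6, 15.9, 18.4 and 20.1 CPM in NE, against 39.9, 41.1, 28.0 and 33.8 CPM in EE, with NE 1 among the EE libraries and a log2 fold change of 0.65 (SE 0.26). Of 15 other receptor kinases 7 were positive and 8 negative (median −0.03). Epha2, itself an ERK target, was at 39.1 ± 8.08 CPM in NE, against 55.0 ± 14.3 CPM in EE, and Fgfr3 at 38.8 ± 7.03 and 30.1 ± 7.51 CPM.

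The relay itself was balanced, with 10 positive and 10 negative log2 fold changes among 20 genes and a median of 0.01. Map2k1, which encodes MEK1, was at 233 ± 32.3 CPM in NE, against 187 ± 36.3 CPM in EE, and the adaptor Gab1 at 36.9 ± 3.60 and 45.9 ± 11.3 CPM. These were the 2 genes of the list with the smallest p, and their groups overlapped.

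Other inhibitors had mostly positive values that passed no test. The further phosphatases are not all specific to ERK. Dusp16, for example, acts mainly on JNK and p38, and a place in this list does not mean a preference for ERK. Of 8 further dual-specificity phosphatases 6 were positive (median 0.30, and 0.22 without EE 4). Dusp14 was at 4.96 ± 0.842 CPM in NE, against 7.41 ± 1.30 CPM in EE, and Dusp10 at 16.0 ± 1.96 and 21.1 ± 4.16 CPM. The Dusp14 groups did not overlap, but by a small step, from 6.02 CPM in NE 2 to 6.12 CPM in EE 2. Dusp14 was scarce, with 321 counts in total over the 8 libraries. Of 15 inhibitors of Ras and of receptors 11 were positive (median 0.20, and 0.07 without EE 4). Rasal2, a Ras GTPase activator, was at 39.6 ± 6.92 and 52.6 ± 10.7 CPM, and Il17rd, an inhibitor of FGF signalling, at 15.9 ± 4.65 and 22.6 ± 6.30 CPM.

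The transcription factors and other outputs passed no test either. Of 21 immediate early and ETS factors 17 were positive, with a median log2 fold change of 0.29, and 0.14 without EE 4. Ier3 stood at 52.6, 48.6, 51.5 and 44.3 CPM in NE, against 53.7, 65.3, 89.3 and 105 CPM in EE, and Egr1 at 15.3, 17.3, 13.2 and 16.4 CPM in NE, against 22.5, 20.9, 20.7 and 35.7 CPM in EE. In both genes all EE libraries lay above all NE libraries, Ier3 in EE 1 by little. Of 16 further genes read as ERK output 13 were positive (median 0.26 with and without EE 4), with the cytokine Lif at 5.67 ± 0.398 and 9.59 ± 3.24 CPM and the receptor Tnfrsf12a at 40.8 ± 9.72 and 60.1 ± 10.5 CPM.

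**Figure D4:**
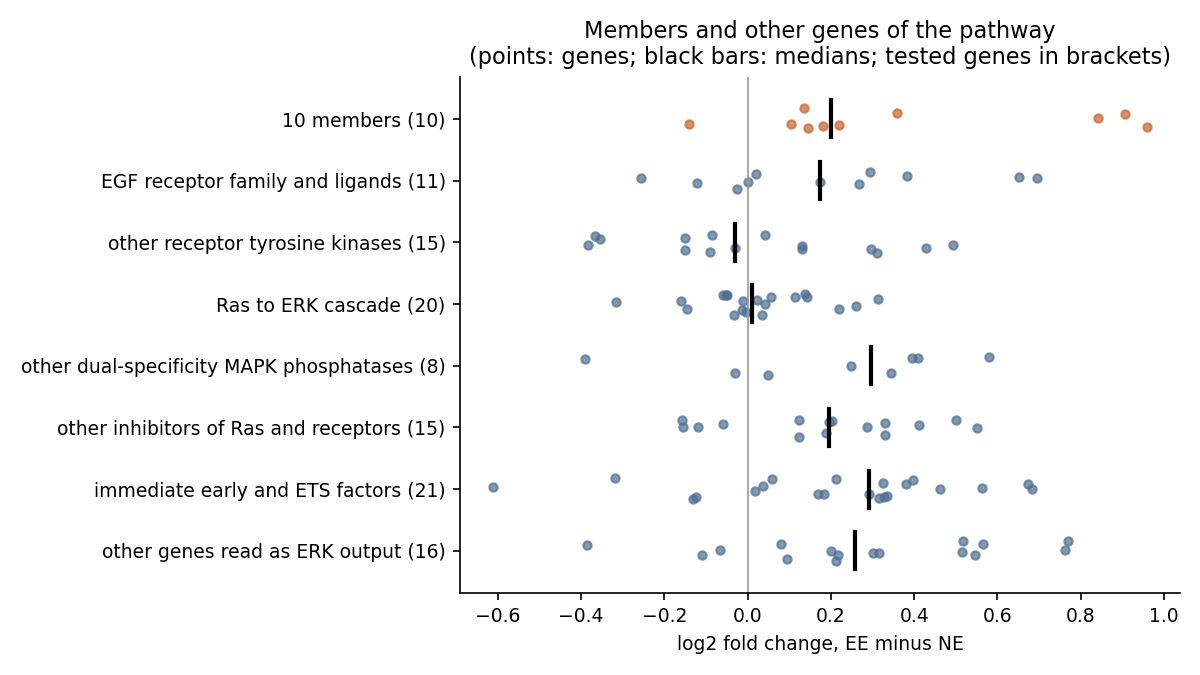
Log2 fold change, EE minus NE, of each tested gene in the 10 described (orange) and in the 7 other lists (blue), with black bars at the medians. The relay from Ras to ERK is centred on 0.01. Over all 8 libraries, Phlda1, Etv5 and Dusp4 lie to the right of the genes of the other lists. This order depends on single libraries: without NE 1 (not drawn), Areg at 0.98 exceeds Phlda1 at 0.91, Etv5 at 0.84 and Dusp4 at 0.83.

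Crypt stem cell and Wnt target genes, called the crypt list below, ran in the same direction as Dusp4, Etv5 and Phlda1. The list does not separate crypt cell content from Wnt activity. None of the 15 crypt stem cell and Wnt target genes passed the edgeR test, nor did any gene of the other marker lists. All 15 had positive log2 fold changes, where 50.3% of all tested genes did, with a median of 0.86, and 0.59 without EE 4. As deviations from each gene's mean over the 8 libraries, their median was −0.68, −0.28, −0.16 and −0.15 in NE 1 to NE 4 and 0.23, −0.50, 0.56 and 0.96 in EE 1 to EE 4. Etv5 gave −0.62, −0.45, −0.29 and −0.32 in NE, then 0.40, −0.28, 0.56 and 0.99 in EE. EE 2 was the lowest and EE 4 the highest EE library in both. Dusp4 gave −0.42, −0.36, −0.24 and −0.59 in NE, then 0.42, −0.10, 0.49 and 0.80 in EE, with the same order in EE but its lowest value in NE 4, where the crypt list was highest among NE. Phlda1 gave −0.60, −0.71, −0.42 and −0.08 in NE, then 0.31, −0.18, 1.001 and 0.69 in EE, with EE 3 above EE 4 where the crypt list had EE 4 above EE 3. The summed level of the crypt list ran from 928 to 1249 CPM in NE and from 1084 to 2451 CPM in EE, no gene of it was at 0 in any library, and its part in the values of Dusp4, Etv5 and Phlda1 was not tested.

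Cell division markers had positive log2 fold changes in 12 of 12 genes (median 0.37, and 0.32 without EE 4), with summed levels of 976 to 1029 CPM in NE, against 1095 to 1662 CPM in EE. Their median deviation was −0.20, −0.27, −0.21 and −0.07 in NE 1 to NE 4 and 0.03, −0.01, 0.34 and 0.45 in EE 1 to EE 4. The order among the EE libraries was that of Etv5, Dusp4 and the crypt list, so it is not particular to the crypt list. Other marker lists ran the opposite way. Log2 fold changes were negative for 10 of 10 smooth muscle genes (median −0.78, and −0.45 without EE 4), 9 of 9 goblet cell genes (median −0.50, and −0.46 without EE 4), 12 of 14 epithelial genes (median −0.34, and −0.20 without EE 4), 10 of 10 leukocyte genes (median −0.58, and −0.30 without EE 4), 6 of 6 tested genes of enteric neurons and glia (median −0.88, and −0.61 without EE 4), 6 of 7 endothelial genes (median −0.34, and −0.09 without EE 4) and 8 of 8 fibroblast genes (median −0.18, and −0.02 without EE 4). Summed levels were 22640 to 28823 CPM in NE, against 10031 to 26562 CPM in EE for the goblet list, 184 to 280 and 91.7 to 224 CPM for leukocytes (119 to 224 CPM in EE 1 to EE 3), 24.2 to 44.3 and 9.49 to 33.0 CPM for neurons and glia, 167 to 185 and 87.3 to 182 CPM for endothelium, and 1519 to 1739 and 503 to 2030 CPM for fibroblasts, with no gene at 0 in any library. Their part in the values of the 10 genes was not tested. Without EE 4 the log2 fold changes of Phlda1, Etv5 and Dusp4 were 0.91, 0.70 and 0.70, against 0.96, 0.91 and 0.84 with it.

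**Figure D5:**
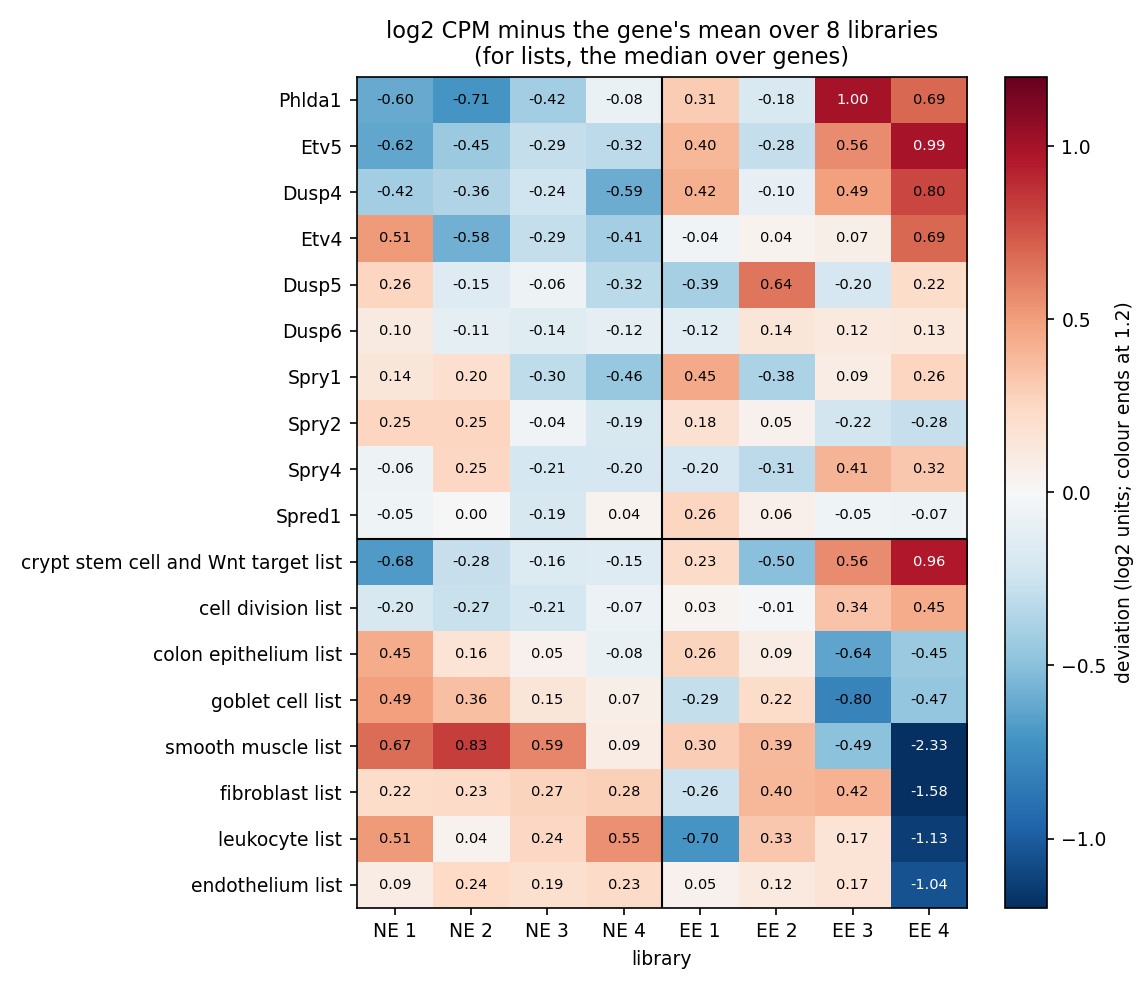
Deviation of log2 CPM from the mean over 8 libraries for each of the 10 genes (upper rows) and the median deviation of 8 marker lists (lower rows), by library, with red above and blue below the mean. Etv5, Dusp4, the crypt list and the cell division list share their order among the EE libraries, with EE 2 lowest and EE 4 highest. For smooth muscle EE 4 is lowest, at −2.33.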

How the data were processed

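Ribosomal RNA was removed from total RNA of the distal colon, and stranded libraries were read as single ends of 50 bases, per the labels' protocols. The submitters' processing notes name Novoalign 2.08.01, DESeq 1.14.0 and the build mm10. The sources used here do not name the annotation, the counter or its use of strand. Genes on the opposite strand that overlap Dusp5, Phlda1, Spry1 and Spry4 may share reads.

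The authors deposited whole-number counts for 16130 genes in 8 libraries, with totals of 4735764 to 10586851, and their own log2 fold change and FDR (an adjusted p-value) per the file headers. The tests ran in edgeR 4.0.16 (R 4.3.3) with filterByExpr (14311 genes kept), TMM scaling and the robust quasi-likelihood test, EE minus NE, with no covariate, adjusted over all genes at 0.05. The SE is the log2 fold change divided by the square root of F. CPM use TMM-scaled totals, and log2 CPM a prior count of 2. Levels per kilobase divide by the union of GENCODE M21 exons, matched by Ensembl identifier.

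Alternatives were DESeq2 1.42.0, limma-voom (limma 3.58.1), other scalings and filters, the replicate number as a block, and each library left out. The scripts were tested on simulated data. The 10 genes and all lists were chosen with earlier results of these data known. Named beyond the 10 were the 2 genes of each pathway list with the smallest p, since none passed, and the 3 genes nearest to each of Dusp4, Dusp6, Spry4 and Etv5.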

Additional observations from a re-analysis of the deposited data

Results flagged for a closer look

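Single libraries stood apart in 3 of the 20 sets of 4 values (10 genes in 2 groups), where chance marks about 1 in 20. In NE, Dusp6 was at 91.6 CPM in NE 1 and at 77.1 to 78.7 CPM in the other 3 libraries, a gap of 0.893 of the group's range and above Dixon's 95% critical value. In EE, Dusp6 was at 78.1 CPM in EE 1 and at 92.6 to 94.0 CPM in the others, a gap of 0.914 of the range. Etv4 in EE was at 28.1 CPM in EE 4 and at 16.8 to 18.1 CPM in the others, a gap of 0.88 of the range.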

How the results depend on the processing

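The count of genes past the adjusted threshold was 0 with edgeR and 12 with DESeq2, and ran from 0 to 1 when 1 library was left out, with the 1 gene called without EE 2. None of the 10 genes was called under any alternative run, and neither was any of the 106 pathway genes. The median log2 fold change of the 10 genes was 0.20 and lay between 0.18 and 0.20 under the other tests, scalings, filters and the replicate block. With 1 library left out it ran from 0.13 without NE 4 to 0.31 without EE 2 (0.30 without NE 1). The direction of each of the 10 genes and of the 14 named pathway genes was the same under every alternative except Dusp5, whose log2 fold change was −0.043 without EE 2 and reached 0.32 without EE 1. The median r over the 45 pairs was 0.05, −0.020 without EE 4 and −0.14 as Spearman's rho, so its sign depends on both choices. Deviations from the group means of libraries with the same number had r of 0.31, 0.02, −0.22 and −0.08 over 12098 genes, so the numbers were not taken to pair the libraries. With the replicate number as a block edgeR called 0 genes and the median of the 10 was 0.18. Counts of 34 to 98 for Dusp5 and 39 to 88 for Spry4 limit the precision of these 2 genes.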

Other observations

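Relatives of the 10 genes by family, chosen after their values were seen, did not share 1 direction. Etv1, the remaining PEA3 factor, stood at 4.89, 3.44, 4.60 and 3.81 CPM in NE, against 3.61, 3.83, 2.42 and 1.27 CPM in EE. Its log2 fold change of −0.61 (SE 0.34) had the opposite sign to those of Etv4 and Etv5. Etv1 was scarce, with 188 counts in total over the 8 libraries, which limits the precision of its values. EE 3 and EE 4, the highest EE libraries for Etv5, were the lowest for Etv1, whose fold change was −0.36 without EE 4. Markers of interstitial cells of Cajal, which are known to express Etv1, had negative log2 fold changes in 3 of 3 genes (median −0.27). Their summed levels were 382 to 513 CPM in NE, against 252 to 443 CPM in EE. The lowest sum was in EE 3, while EE 4, the lowest library for Etv1, was at 395 CPM, within the NE range. Like Etv1, the smooth muscle list (664 and 2296 CPM) and the neuron and glia list (9.49 and 11.5 CPM) were lowest in EE 4, then EE 3. Epithelial and goblet sums were lowest in EE 3, then EE 4. Leukocyte, fibroblast and endothelial sums were lowest in EE 4, but in EE 3 none of them lay below the NE range. The part of any of these lists in the Etv1 values was not tested.

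Spred2, the nearest relative of Spred1, was at 26.4, 31.5, 30.7 and 28.8 CPM in NE, against 44.0, 21.1, 30.7 and 47.7 CPM in EE, with EE 2 the lowest and EE 4 the highest of the 8. Dusp1, the phosphatase of the immediate early response, was at 51.2 ± 7.05 CPM in NE, against 50.1 ± 9.10 CPM in EE. Dusp16, a phosphatase that acts mainly on JNK and p38, was at 59.9 ± 4.91 and 71.1 ± 7.98 CPM in the same order (log2 fold change 0.25, SE 0.12).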
